A study of Homo sapiens with 6 samples.

Results

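The genes described here encode 10 surface antigens by which B cells and B-cell lymphomas are typed or targeted: MS4A1 (CD20), CD24, CD52, CD38, MME (CD10), CD27, CD72, CD37, CD81 and CD99. They were chosen by symbol, as the probe sets that the platform annotation assigns to these genes alone, and each gene was read from the brightest of its probe sets, by mean over 6 arrays. All 10 were found among 19775 genes, on 22 of 41091 probe sets with 1 gene symbol, and all 10 were among the 12012 genes tested. RNA of Raji, Namalwa and Ramos was hybridised to Affymetrix U133 Plus arrays. These are established cell lines of Burkitt lymphoma, a fast-growing tumour of B cells that carries a MYC translocation. Each line gave 1 array labelled miR26a and 1 labelled empty, so that there were 3 arrays per group and 2 per line. The labels describe cells transfected for inducible microRNA expression and treated with doxycycline at 0.5 µg/ml for 72 h, and they list this treatment for the empty arrays too. Separate cultures are not mentioned for any group. A p-value here rests on the spread between arrays that line and group leave over. That spread may be technical or a miR26a change that differs between lines, and this design cannot tell these apart. Precision is limited by having so few arrays.

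B-cell surface antigens are read by antibodies to assign a lymphoma to a stage of B-cell life. Burkitt lymphoma is classed with the germinal centre B cell and typically carries CD20, CD10 and CD38 on its surface. Some of these proteins set the threshold of the B-cell receptor, some bind ligands on other cells, and several are targets of therapeutic antibodies. The arrays measure their RNA, not the protein at the surface, and in bulk RNA fewer cells of a type and less RNA per cell cannot be told apart.

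By the labels, the microRNA induced for the miR26a arrays is miR-26a, and its level was not examined here. The sequence of miR-26a is shown because the comparison of the groups rests on this microRNA. It is the RefSeq sequence of build GRCh38.p14, with the seed (bases 2 to 8, which pair with target RNAs) in capitals. Both copies in RefSeq, MIR26A1 on chromosome 3 and MIR26A2 on chromosome 12, give the same mature sequence of 22 bases. Sites for the seed in the 10 genes were not searched here.
hsa-miR-26a-5p: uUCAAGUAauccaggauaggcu

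RefSeq promoters (250 bases before to 50 after a start, build GRCh38.p14) were matched for 7 of the 10 genes. Those of CD24 and CD99 are shown because these genes lay below the level minimum (4.42 log2, defined below) in 1 line and well above it in the others, those of CD27 and CD52 because CD27 was low in Ramos only and CD52 had the smallest p for miR26a. The CD24 sequence is chr6:106975578-106975877 on the minus strand and is the first of 3 listed starts. CD99 is chrX:2691045-2691344, CD27 chr12:6443642-6443941 and CD52 chr1:26317708-26318007, all on the plus strand. Capitals mark matches on either strand to the motifs searched.
CD24: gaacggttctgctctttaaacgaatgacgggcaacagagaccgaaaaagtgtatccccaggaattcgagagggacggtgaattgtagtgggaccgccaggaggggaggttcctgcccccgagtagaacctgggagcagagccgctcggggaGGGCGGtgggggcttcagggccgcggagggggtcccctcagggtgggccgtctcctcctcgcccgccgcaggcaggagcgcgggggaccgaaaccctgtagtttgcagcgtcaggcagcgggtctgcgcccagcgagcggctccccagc
CD99: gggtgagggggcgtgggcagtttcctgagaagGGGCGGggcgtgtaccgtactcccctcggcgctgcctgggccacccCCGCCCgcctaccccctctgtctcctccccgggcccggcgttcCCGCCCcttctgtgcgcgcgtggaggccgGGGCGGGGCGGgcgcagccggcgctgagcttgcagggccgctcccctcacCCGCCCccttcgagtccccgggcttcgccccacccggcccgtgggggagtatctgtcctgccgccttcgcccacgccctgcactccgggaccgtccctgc
CD27: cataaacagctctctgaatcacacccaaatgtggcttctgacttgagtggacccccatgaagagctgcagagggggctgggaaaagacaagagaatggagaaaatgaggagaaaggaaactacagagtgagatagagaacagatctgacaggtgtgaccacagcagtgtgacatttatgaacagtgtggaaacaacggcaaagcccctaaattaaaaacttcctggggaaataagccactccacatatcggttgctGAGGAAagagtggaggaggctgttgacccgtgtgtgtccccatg
CD52: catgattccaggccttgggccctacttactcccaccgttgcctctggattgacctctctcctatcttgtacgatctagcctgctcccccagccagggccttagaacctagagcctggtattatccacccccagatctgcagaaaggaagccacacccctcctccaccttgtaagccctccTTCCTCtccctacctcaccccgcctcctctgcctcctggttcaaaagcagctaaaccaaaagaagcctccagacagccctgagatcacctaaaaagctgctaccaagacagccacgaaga

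The promoters fell into CpG-rich and CpG-poor windows. The first listed starts of CD24, CD99 and MME held 25, 33 and 19 CpG dinucleotides, those of CD27, CD38, CD52 and CD72 held 3, 4, 4 and 6, and the median of 34961 promoters was 14. The GC box (GGGCGG) matched at 1 place in the CD24 window, 6 in CD99 (a pair of them overlapping) and 2 in MME, and 45% of all promoters hold it. The core of the PU.1 and ETS site (GAGGAA) matched at 1 place in CD27 and in CD52 and 2 in CD72, and 27.9% of all promoters hold it. The CCAAT box (CCAAT) matched at 1 place each in CD38 and CD72, against 34.6% of all promoters with a match. The MYC E-box (CACGTG, in 7.27% of promoters), another E-box (CAGCTG, 18%), the octamer (ATGCAAAT, 1.77%) and the TATA box (TATAAA, 11.5%) had no match in the first listed windows of the 7 genes. Nor had an EBF1 palindrome (1.21%) and an NF-kB motif (1.92%). These matches describe letters only.

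The B-cell label was checked on markers. Of 8 genes on a list of B-lineage markers, 7 were measured, among them the receptor chains CD79A and CD79B and the transcription factors PAX5 and EBF1, and all 7 exceeded the level minimum of 4.42 on both arrays of each line. That minimum is the median of the probe set means, and no detection calls were used. Of 9 T and NK cell markers, 3 in Raji, 2 in Namalwa and 1 in Ramos exceeded it on both arrays, with a highest value of 4.97. Of 6 monocyte markers measured, 1 in Raji and 0 in Namalwa and Ramos did so, of 2 red cell markers 2, 1 and 1 in Raji, Namalwa and Ramos, and of 5 fibroblast markers 3, 2 and 2. In these 4 lists, NCAM1, CSF1R, HBB, DCN and COL1A1 were called higher in Raji than in each other line. CD7 was called higher in Raji than in Ramos. These differences ran from 0.36 to 0.99. COL1A2 was called lower in Namalwa than in Ramos, by at least 1.31-fold (-0.53 as measured). Several of these calls involve dim arrays. In Namalwa, NCAM1, CSF1R and COL1A2 fell below the level minimum on each array. CSF1R did so in Ramos as well, and NCAM1, CD7 and DCN on 1 Ramos array each. COL1A1, a collagen chain, was the brightest, at 6.53 to 7.15 on the 6 arrays. Between groups, the summed linear levels were 142 to 172 on miR26a and 147 to 165 on empty arrays for T and NK cell markers, and 162 to 219 on miR26a and 156 to 229 on empty arrays for fibroblast markers. The ACTB control probe sets differed between their 3′ and 5′ ends by 3.58 log2 on the Namalwa empty array, a sign of RNA quality, against 1.80 to 1.98 on the other 5 arrays. On lists of germinal centre genes (6 of 8 measured) and plasma cell genes, calls were more frequent between Raji and the other lines. Over all genes the same held. Of 6 tested germinal centre genes, 4 were higher and 2 lower in Raji than in Namalwa. Of 4 tested plasma cell genes, 1 was higher and 3 were lower. Against Ramos, Raji had 4 germinal centre genes higher and 2 lower, and 1 plasma cell gene higher and 2 lower. In Namalwa against Ramos, 2 germinal centre genes were higher, 1 was lower, and 0 plasma cell genes were called. The share of all 12012 genes called was 46.1%, 50.5% and 14.7% for these comparisons in turn. The part of such differences in the values below was not tested.

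**Figure D1:**
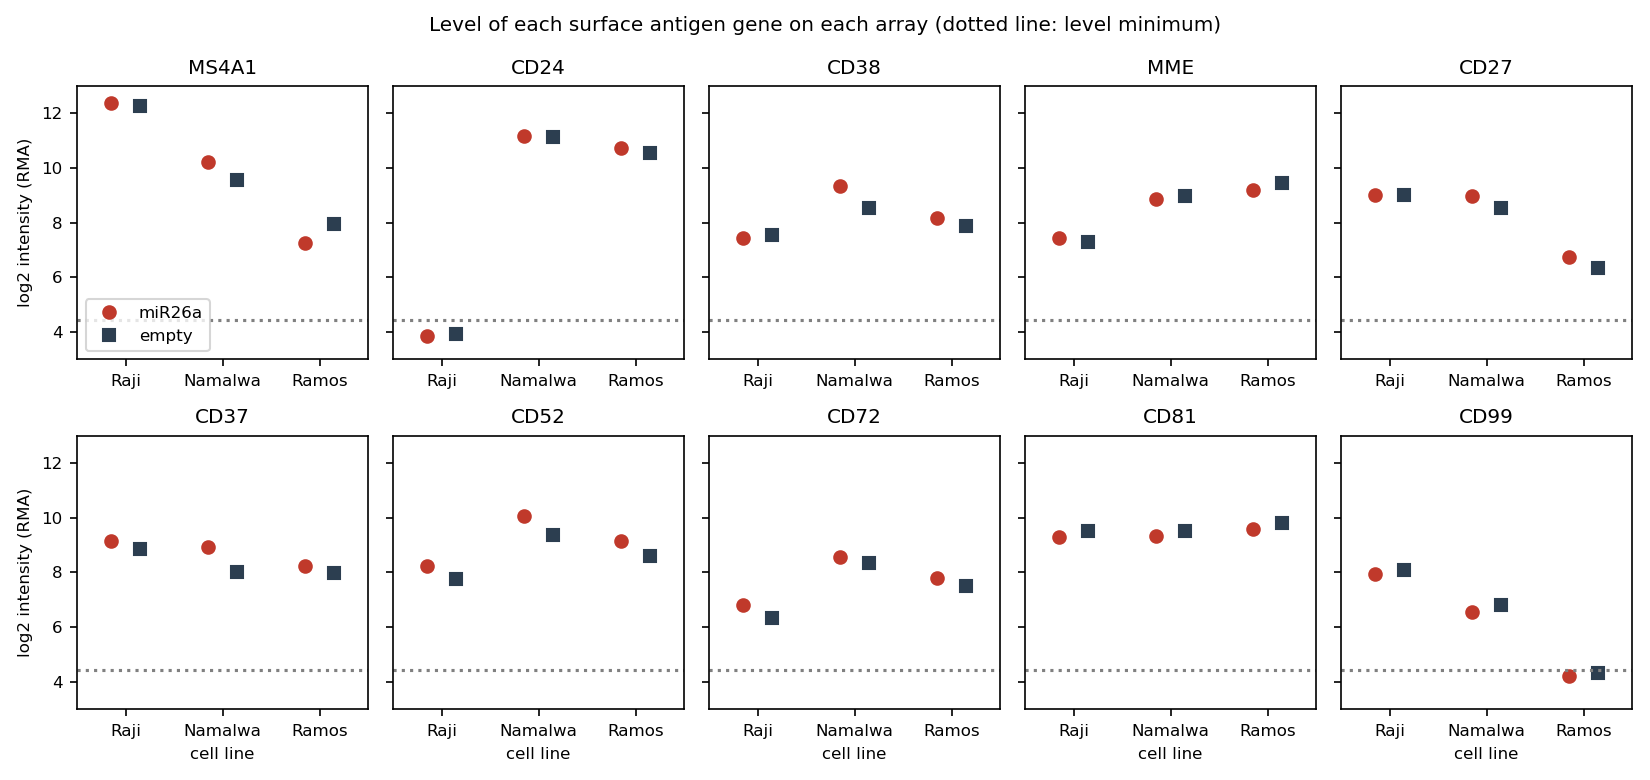
Log2 intensity of each of the 10 genes (1 panel per gene) on the miR26a array (circles) and the empty array (squares) of Raji, Namalwa and Ramos, with the level minimum of 4.42 as a dotted line. CD24 lies below the line in Raji and CD99 in Ramos, MS4A1 descends from Raji over Namalwa to Ramos, and CD81 stays between 9.30 and 9.82 throughout.

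Most of the 10 genes differed between lines. In Raji against Namalwa, 3 were higher, 5 lower and 2 did not pass (limma, adjusted p under 0.05), at a background of 46.1% of all 12012 genes called (22.8% higher, 23.4% lower and 52.8% with an unadjusted p under 0.05). In Raji against Ramos, 4 were higher, 5 lower and 1 did not pass, with 50.5% of all genes called (26.1% higher, 24.4% lower and 56.9% with an unadjusted p under 0.05). In Namalwa against Ramos, 7 were higher, 0 lower and 3 did not pass, with 14.7% of all genes called (8.09% higher, 6.57% lower and 28.4% with an unadjusted p under 0.05). At an unadjusted p under 0.05, 9 of the 10 differed between Namalwa and Ramos, of which MME and CD81 were on the lower side. The median difference of the 10 genes was -0.74 log2 for Raji minus Namalwa, -0.43 for Raji minus Ramos and 0.82 for Namalwa minus Ramos, beside 0.05, 0.06 and 0.00 over all genes tested. The counts called, and the counts without overlap given next, include CD24 and CD99, which were called in all 3 comparisons. Both reached the level minimum through the lines in which they are high, so their calls are no support for a difference between lines. The medians were the same with both genes at the bounds given below. The arrays of 2 lines did not overlap for 8 genes between Raji and Namalwa (70.8% of all genes), for 10 between Raji and Ramos (75.7%) and for 9 between Namalwa and Ramos (53.9%). The 3 comparisons share arrays, so their counts are not independent.

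**Figure D2:**
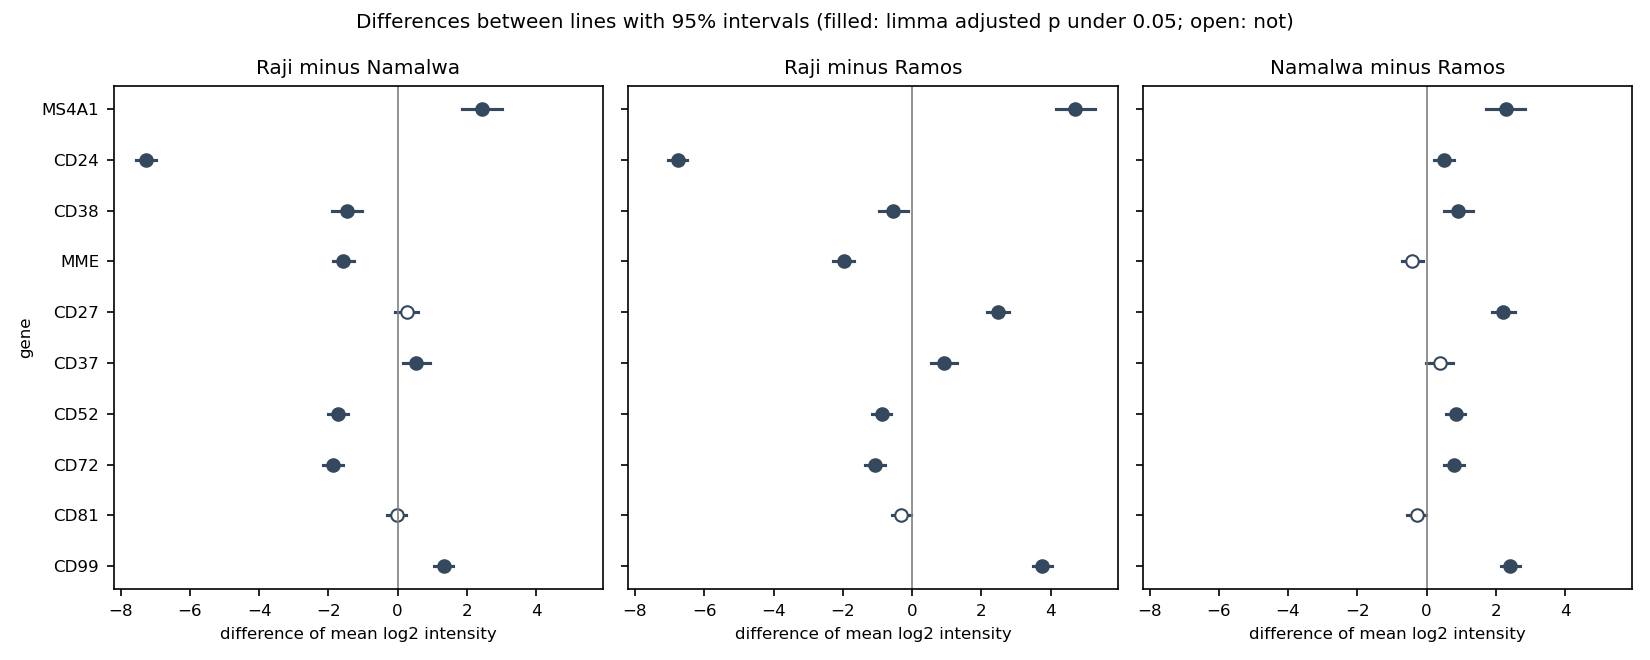
Difference of mean log2 intensity for each gene (rows) in Raji minus Namalwa, Raji minus Ramos and Namalwa minus Ramos (panels), with 95% intervals from limma; filled points passed an adjusted p under 0.05 over all genes and open points did not. CD24 in the Raji panels and CD99 in the Ramos panels are set against arrays below the level minimum, and MS4A1 and CD27 lie above 2 in Namalwa minus Ramos.

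MS4A1 encodes CD20, a tetraspanning protein of mature B cells linked to calcium signalling and the target of rituximab. MS4A1 had log2 levels of 12.37 (miR26a) and 12.27 (empty) in Raji, 10.21 (miR26a) and 9.55 (empty) in Namalwa, and 7.24 (miR26a) and 7.96 (empty) in Ramos. Raji was highest and Ramos lowest, with no overlap between any 2 lines. The line means were 12.32 ± 0.07 in Raji, 9.88 ± 0.47 in Namalwa and 7.60 ± 0.50 in Ramos (SD, n = 2 each, with miR26a and empty pooled). The difference was 2.44 log2 (SE 0.26) in Raji minus Namalwa, a 5.41-fold difference (limma adjusted p = 4.54e-05). In Raji minus Ramos it was 4.72 (SE 0.26), or 26.3-fold (adjusted p = 4.09e-07), and in Namalwa minus Ramos 2.28 (SE 0.26), or 4.87-fold (adjusted p = 5.00e-04). The other 3 probe sets gave the same order of lines, with Raji minus Ramos differences of 5.18 and 5.34 for the brighter pair. The dimmest was below the level minimum on both Ramos arrays, at 3.68 (miR26a) and 4.30 (empty).

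CD24 and CD52 encode short, heavily glycosylated proteins held in the membrane by a glycosylphosphatidylinositol (GPI) anchor. CD24 is common on immature and germinal centre B cells and binds the lectin Siglec-10. CD24 had log2 levels of 3.85 (miR26a) and 3.91 (empty) in Raji, 11.18 (miR26a) and 11.12 (empty) in Namalwa, and 10.73 (miR26a) and 10.56 (empty) in Ramos. Both Raji arrays lay below the level minimum, and the other 4 arrays lay more than 6 log2 above them. With that minimum as the Raji level, CD24 was at least 106-fold lower in Raji than in Namalwa and at least 74.9-fold lower than in Ramos. The adjusted p was 6.75e-10 against Namalwa and 1.03e-09 against Ramos. Namalwa minus Ramos was 0.50 (SE 0.13, adjusted p = 0.0271).

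That last call did not hold when the arrays or probe sets were changed. Leaving out any 1 of the 4 arrays gave an adjusted p of 0.0955 to 0.304, and the other 5 CD24 probe sets gave differences of 0.29 to 0.45 with an adjusted p of 0.0722 to 0.202 over all probe sets. In Raji against Namalwa and Ramos all 6 probe sets passed. Of these, 5 were below the level minimum on both Raji arrays. The other read 5.43 on both, with -2.74 for Raji minus Namalwa and -2.39 for Raji minus Ramos. In Affymetrix naming the suffixes _s_at and _x_at mark probes that can bind more than 1 transcript, and all 6 CD24 probe sets carry 1 of them.

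**Figure D3:**
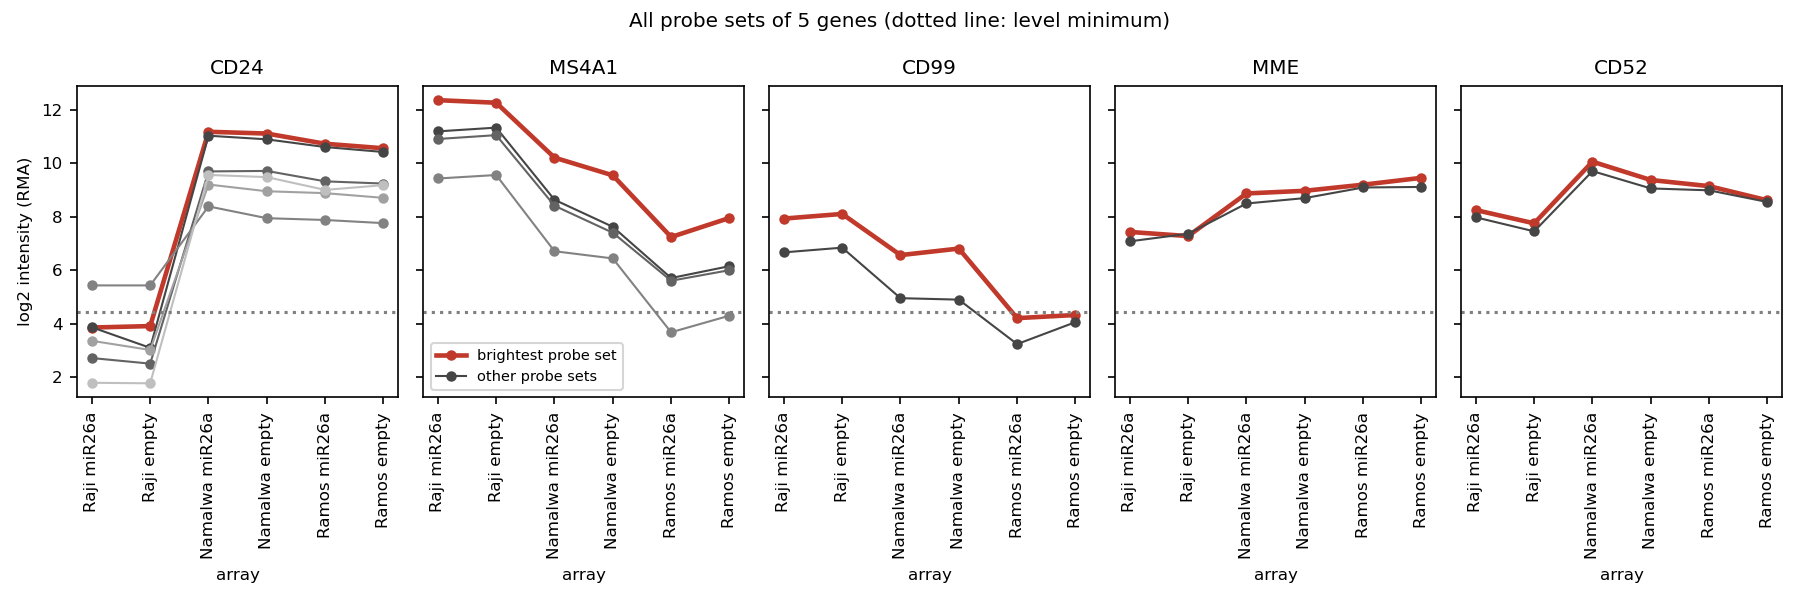
Log2 intensity of every probe set of CD24, MS4A1, CD99, MME and CD52 on the 6 arrays, grouped by line; the thick red line is the brightest probe set, grey lines are the others, and the dotted line is the level minimum of 4.42. Most probe sets of a gene follow the same order of lines, and 1 CD24 probe set stays at 5.43 in Raji.

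CD52, the target of alemtuzumab, is abundant on lymphocytes. CD52 had log2 levels of 8.25 (miR26a) and 7.75 (empty) in Raji, 10.06 (miR26a) and 9.38 (empty) in Namalwa, and 9.15 (miR26a) and 8.62 (empty) in Ramos. Namalwa was highest and Raji lowest, and the lines did not overlap. It differed by -1.72 in Raji minus Namalwa (SE 0.13, 3.29-fold, adjusted p = 3.83e-06), by -0.88 in Raji minus Ramos (1.84-fold, adjusted p = 2.93e-04) and by 0.84 in Namalwa minus Ramos (1.79-fold, adjusted p = 0.00215). Without a term for miR26a, the last of these had an adjusted p of 0.0844. A second probe set gave -1.67, -1.06 and 0.61 for the same differences.

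CD38 and MME encode enzymes that face outward from the membrane, and both are part of the usual Burkitt phenotype. CD38 makes cyclic ADP-ribose from NAD and is the target of daratumumab. CD38 had log2 levels of 7.43 (miR26a) and 7.53 (empty) in Raji, 9.34 (miR26a) and 8.54 (empty) in Namalwa, and 8.18 (miR26a) and 7.87 (empty) in Ramos. The order was Namalwa, Ramos, Raji, with no overlap. Raji minus Namalwa was -1.46 (SE 0.19, 2.75-fold, adjusted p = 1.86e-04) and Namalwa minus Ramos 0.92 (SE 0.19, 1.89-fold, adjusted p = 0.0113). Raji minus Ramos was -0.54 (SE 0.19, 1.46-fold, adjusted p = 0.0371). With 1 array left out, Raji minus Ramos ran from -0.87 to -0.22. The call was lost without the Raji miR26a array (-0.22, adjusted p = 0.367), without either Ramos array (adjusted p = 0.0761 and 0.0993) and with no miR26a term (adjusted p = 0.0918), and held without the Raji empty array (-0.87, adjusted p = 0.00169). Namalwa minus Ramos was not called without the Namalwa miR26a array (0.57, adjusted p = 0.104) and was 1.26 without the Namalwa empty array (adjusted p = 0.00646).

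MME encodes CD10, a neutral endopeptidase that cleaves small peptides and marks early and germinal centre B cells. MME had log2 levels of 7.43 (miR26a) and 7.28 (empty) in Raji, 8.87 (miR26a) and 8.97 (empty) in Namalwa, and 9.20 (miR26a) and 9.46 (empty) in Ramos. Both Raji arrays lay below the arrays of the other lines. Raji minus Namalwa was -1.57 (SE 0.14, 2.97-fold, adjusted p = 1.41e-05) and Raji minus Ramos -1.98 (SE 0.14, 3.93-fold, adjusted p = 2.53e-06). Namalwa minus Ramos was -0.41 (95% interval -0.72 to -0.10) and did not pass (adjusted p = 0.0835). The second MME probe set put it at -0.51 (adjusted p = 0.0405 over all probe sets), so that the order of Namalwa and Ramos depended on the probe set for its call but not for its direction.

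CD27 and CD72 are receptors. CD27, of the TNF receptor superfamily, marks memory and some germinal centre B cells and binds CD70. CD27 had log2 levels of 9.01 (miR26a) and 9.02 (empty) in Raji, 8.97 (miR26a) and 8.52 (empty) in Namalwa, and 6.73 (miR26a) and 6.33 (empty) in Ramos. Ramos stood below the other 4 arrays. Raji minus Ramos was 2.48 (SE 0.15, 5.59-fold, adjusted p = 7.31e-07) and Namalwa minus Ramos 2.22 (SE 0.15, 4.66-fold, adjusted p = 2.25e-05). Raji minus Namalwa was 0.26 (95% interval -0.06 to 0.59, adjusted p = 0.172), and it was 0.48 without the Raji miR26a array (adjusted p = 0.0322), 0.0458 without the Raji empty array (adjusted p = 0.865) and 0.14 without the Namalwa empty array (adjusted p = 0.622). CD70, the ligand, was higher in Raji by 1.37 against Namalwa (2.59-fold, adjusted p = 1.22e-04) and by 0.82 against Ramos (adjusted p = 0.00274), and Namalwa minus Ramos was -0.56 (adjusted p = 0.0531).

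CD72 is a C-type lectin that dampens B-cell receptor signals through the phosphatase PTPN6 and binds semaphorin 4D. CD72 had log2 levels of 6.81 (miR26a) and 6.33 (empty) in Raji, 8.55 (miR26a) and 8.33 (empty) in Namalwa, and 7.79 (miR26a) and 7.49 (empty) in Ramos. The order of lines was the one seen for CD38 and CD52, with no overlap. It differed by -1.87 in Raji minus Namalwa (SE 0.13, 3.66-fold, adjusted p = 2.37e-06), by -1.07 in Raji minus Ramos (2.11-fold, adjusted p = 9.11e-05) and by 0.80 in Namalwa minus Ramos (1.74-fold, adjusted p = 0.00319). Semaphorin 4D (SEMA4D) was at -1.63 for Raji minus Namalwa, -0.95 for Raji minus Ramos and 0.68 for Namalwa minus Ramos (adjusted p = 1.73e-05, 5.27e-04 and 0.0147). PTPN6 was at 0.49, 1.57 and 1.08 for the same differences (adjusted p = 0.0371, 4.75e-05 and 0.00286).

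CD37 and CD81 are tetraspanins, proteins that cross the membrane repeatedly and gather partners into domains. CD37 is almost restricted to leukocytes and most abundant on mature B cells. CD37 had log2 levels of 9.16 (miR26a) and 8.87 (empty) in Raji, 8.93 (miR26a) and 8.02 (empty) in Namalwa, and 8.23 (miR26a) and 7.97 (empty) in Ramos. Raji did not overlap with Ramos, but the Namalwa arrays overlapped with both other lines. Raji minus Ramos was 0.92 (SE 0.17, 1.89-fold, adjusted p = 0.00151), Raji minus Namalwa 0.54 (SE 0.17, adjusted p = 0.0259) and Namalwa minus Ramos 0.38 (95% interval -0.00418 to 0.760, adjusted p = 0.181). The values with Namalwa depended on which of its arrays was used. Without the miR26a array, Raji minus Namalwa was 0.86 (adjusted p = 0.00345) and Namalwa minus Ramos 0.0583 (adjusted p = 0.868). Without the empty array, which had the ACTB difference of 3.58, Raji minus Namalwa was 0.22 (adjusted p = 0.329) and Namalwa minus Ramos 0.70 (adjusted p = 0.0357). The call of Raji against Namalwa was also lost without the Raji empty array (adjusted p = 0.149), without a miR26a term (adjusted p = 0.134) and with the median over probe sets (adjusted p = 0.0579). That median takes in a second CD37 probe set whose mean of 4.37 was below the level minimum.

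CD81 is made by many cell types and is also an entry receptor for hepatitis C virus. CD81 had log2 levels of 9.30 (miR26a) and 9.50 (empty) in Raji, 9.35 (miR26a) and 9.51 (empty) in Namalwa, and 9.60 (miR26a) and 9.82 (empty) in Ramos. Its whole range over the 6 arrays was 0.52 log2, the smallest of the 10 genes, against 7.33 for CD24. The difference Raji minus Namalwa was -0.03 (95% interval -0.30 to 0.24, adjusted p = 0.862), Raji minus Ramos -0.31 (95% interval -0.58 to -0.04, adjusted p = 0.0584) and Namalwa minus Ramos -0.28 (95% interval -0.55 to -0.01, adjusted p = 0.167). Raji against Ramos passed with each array centred on its median (-0.36, adjusted p = 0.0341), with a prior that follows intensity (adjusted p = 0.0294), with the higher level minimum (adjusted p = 0.0374) and with the median over probe sets (adjusted p = 0.0498). Except with centred arrays, the difference in these settings stayed at -0.31. CD81 has 1 probe set, so the median over probe sets left its own values as they were.

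CD99 is a small sialoglycoprotein of leukocyte adhesion and migration, encoded in the pseudoautosomal region. CD99 had log2 levels of 7.93 (miR26a) and 8.11 (empty) in Raji, 6.56 (miR26a) and 6.81 (empty) in Namalwa, and 4.20 (miR26a) and 4.32 (empty) in Ramos. Both Ramos arrays lay below the level minimum. With that minimum as the Ramos level, CD99 was at least 12.1-fold higher in Raji and at least 4.81-fold higher in Namalwa than in Ramos. Raji minus Namalwa was 1.33 (SE 0.12, 2.52-fold, adjusted p = 1.85e-05). The adjusted p against Ramos was 1.46e-08 for Raji and 3.77e-06 for Namalwa. The dimmer second probe set gave 1.83 for Raji minus Namalwa and was also below the level minimum on both Ramos arrays.

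The 10 genes thus showed several orders of lines rather than 1. MS4A1 descended over Raji, Namalwa and Ramos with all 3 differences called. CD99 had the same order as measured, but both its Ramos arrays were below the level minimum. The calls of CD99 are therefore no support for that order. CD38, CD52 and CD72 descended over Namalwa, Ramos and Raji with all 3 differences called. MME and CD24 were low in Raji, CD27 was low in Ramos, and CD37 and CD81 had the smallest ranges. Profiles were compared as the root mean square difference over the 6 arrays after each gene was centred on its mean. Among the 10 genes, CD52 and CD72 were closest (0.17 log2, Pearson r = 0.98 over 6 arrays), followed by CD38 and CD52 (0.23, r = 0.96). The 6 arrays come from 3 lines, so these likenesses describe mainly the order of lines.

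Among all 12012 genes, those nearest to each member with a range of at least 2 log2 were found with the same measure. Values below the level minimum entered as measured, which touches the profiles of CD24 and CD99 and some genes named as nearest to other members. Of the latter, BCL2A1, CDC42EP3 and MIR146A were below it on both Ramos arrays, THEMIS2 on both Raji arrays and FCHO2 on the Raji empty array. The nearest to MS4A1 were SEL1L3 (0.37 log2), the protease gene CTSH (0.46) and the death inhibitor BCL2A1 (0.48). BNIP3, a mitochondrial protein of hypoxia and autophagy, was nearest to CD24 (0.19), then RBMS1 (0.37) and the noncoding CRNDE (0.38). CD99 was nearest to IL2RG, the common cytokine receptor chain (0.28), then OLMALINC (0.35) and CMTM4 (0.36). CD27 was nearest to CDC42EP3 (0.17), RNF144B (0.22) and the probe set annotated MIR146A (0.27). MME was nearest to ZFAND2A (0.05), LRIF1 (0.10) and ZNF274 (0.11). CD52 had CD72 as its nearest gene of all (0.17), with FCHO2 and MFN1 next (0.19 each), and CD72 had MAGEF1 (0.09), THEMIS2 (0.11) and OPTN (0.14).

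Other surface genes also differed between lines. On a list of 40 further B-cell surface antigens, 39 were measured and 35 tested: 19 were higher and 8 lower in Raji than in Namalwa, 18 higher and 7 lower in Raji than in Ramos, and 12 higher and 2 lower in Namalwa than in Ramos. Their median differences were 0.52, 0.37 and 0.24 log2, beside 0.05, 0.06 and 0.00 over all genes. The share called was 77.1%, 71.4% and 40.0% of the list, beside 46.1%, 50.5% and 14.7% of all genes. These counts include ICAM3, CXCR5, FCER2 and ITGAL, each below the level minimum on both arrays of a line. They passed it through the lines in which they are high, so their calls are no support for a difference between lines. ICAM3, an adhesion molecule, was at 3.63 (miR26a) and 3.95 (empty) in Raji, below the level minimum, and was at least 6.81-fold lower there than in Ramos (adjusted p = 3.60e-07). The chemokine receptor CXCR4 was lower in Raji, with a difference of -3.27 to Namalwa (9.65-fold) and of -3.40 to Ramos (10.6-fold). ITGB2, the beta chain of the leukocyte integrins, was higher in Raji by 4.14 against Ramos (adjusted p = 1.36e-07) and higher in Namalwa than in Ramos by 1.81, and 1 of its Ramos arrays was below the level minimum.

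Relatives and partners of the 10 genes were counted in the same way. Of 12 tested further tetraspanins (14 listed), 6 were higher and 2 lower in Raji than in Namalwa, 6 higher and 2 lower in Raji than in Ramos, and 2 higher and 1 lower in Namalwa than in Ramos. That is 66.7%, 66.7% and 25.0% of them, beside 46.1%, 50.5% and 14.7% of all genes. The counts include CD9, which passed the level minimum through Namalwa and Ramos. Its calls are therefore no support for a difference between lines. CD9 was the most different, with log2 levels of 3.51 (miR26a) and 3.86 (empty) in Raji, 8.02 (miR26a) and 7.54 (empty) in Namalwa, and 6.69 (miR26a) and 6.67 (empty) in Ramos. Both Raji arrays were below the level minimum for CD9. CD82 went the other way, higher in Raji by 1.48 against Namalwa and 1.63 against Ramos. Of 14 tested partners and ligands (18 listed), 7 were higher and 2 lower in Raji than in Namalwa, 6 higher and 3 lower in Raji than in Ramos, and 4 higher and 1 lower in Namalwa than in Ramos, which is 64.3%, 64.3% and 35.7%. CR2, a complement receptor that associates with CD81, was higher in Raji by 2.79 against Namalwa (6.92-fold) and at least 11.3-fold higher than in Ramos, where both arrays were below the level minimum. PECAM1, a ligand of CD38, was at -1.68 for Raji minus Namalwa, -0.49 for Raji minus Ramos and 1.19 for Namalwa minus Ramos (adjusted p = 7.69e-06, 0.0138 and 5.18e-04). IFITM1, a partner of CD81, was below the level minimum on all arrays of Raji and Namalwa, each at least 2.06-fold lower than Ramos. The counts of partners and ligands include CR2, IFITM1 and SOCS3, the last below the level minimum on both Namalwa arrays. These genes passed it through the lines in which they are high, so their calls are no support for a difference between lines.

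Among 4 tested relatives of CD20, CD10 and CD99 (of 9 listed, with the CD38 relative BST1 below the level minimum), CD99L2 and ECE1 were higher in Raji than in Namalwa, by 0.69 and 0.59. They were also higher in Raji than in Ramos, as was MS4A7 (0.48), which was also higher in Namalwa than in Ramos (0.49). Enzymes that build and attach the GPI anchor, which CD24 and CD52 carry, gave counts near the background: of 19 tested (20 listed), 4 were higher and 6 lower in Raji than in Namalwa, 5 higher and 5 lower in Raji than in Ramos, and 2 higher and 1 lower in Namalwa than in Ramos. That is 52.6%, 52.6% and 15.8%, beside 46.1%, 50.5% and 14.7% of all genes. PGAP1, which removes an acyl chain from the anchor, was lower in Raji, with a difference of -0.99 to Namalwa and of -1.71 to Ramos.

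None of the 10 genes passed between miR26a and empty. limma, with the line as a block, gave 0 of 10 with an adjusted p under 0.05, beside 0% of all 12012 genes. The lowest value over all genes was 0.073. Without adjustment, p was under 0.05 for 4 of the 10 (CD52, CD37, CD72 and CD27, all on the higher side) and for 12.9% of all genes. The median difference of miR26a minus empty was 0.17 log2 over the 10 genes and -0.01 over all genes. In 3 of the 10 genes (CD37, CD52 and CD72) the miR26a array was the higher in all 3 lines, against 15.5% of all genes, and in 2 (CD81 and CD99) it was the lower in all 3, against 19.6%.

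**Figure D4:**
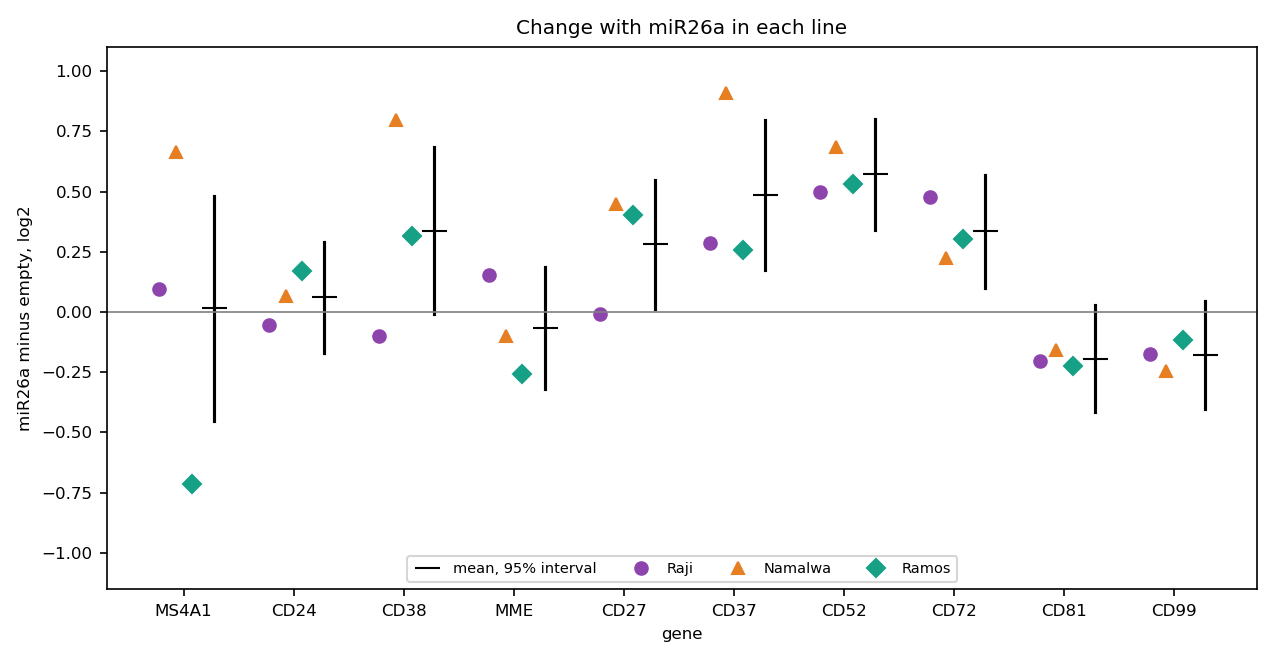
Log2 difference of miR26a minus empty for each gene in Raji (circles), Namalwa (triangles) and Ramos (diamonds), with the mean over the lines and its 95% interval from limma as a black bar. CD52 lies at 0.50, 0.69 and 0.53, CD81 and CD99 (brightest probe sets) lie below 0 in each line, and MS4A1 runs from 0.66 in Namalwa to -0.71 in Ramos.

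CD52 had the smallest p of the 10 genes. Its miR26a minus empty difference was 0.50 in Raji, 0.69 in Namalwa and 0.53 in Ramos, or 1.41-fold, 1.61-fold and 1.44-fold. The mean was 0.57 (SE 0.10, 95% interval 0.34 to 0.80), which ranked 46 by p and did not pass (limma adjusted p = 0.073). Within each line the difference lay at the 97.0th, 98.7th and 98.6th percentile of all genes in Raji, Namalwa and Ramos. The second CD52 probe set gave 0.52, 0.65 and 0.44. CD52 passed when the prior followed intensity (adjusted p = 0.0288), when the level minimum was raised (adjusted p = 0.0432) and when Raji was left out (adjusted p = 0.0318). The 10 alternatives tried gave adjusted p-values between 0.0288 and 1.00. Leaving out Namalwa, and with it the array of the ACTB difference of 3.58, gave a mean of 0.51.

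CD37 and CD38 had their highest differences in Namalwa. CD37 was at 0.29 in Raji, 0.91 in Namalwa and 0.26 in Ramos, with a mean of 0.48 (SE 0.14, adjusted p = 0.184). Without Namalwa its mean was 0.27. CD38 was at -0.10 in Raji, 0.80 in Namalwa and 0.32 in Ramos, with a mean of 0.34 (95% interval -0.01 to 0.68, adjusted p = 0.405) that was 0.11 without Namalwa. In Namalwa, CD37 lay at the 99.6th and CD38 at the 99.3rd percentile of all genes. The part of the ACTB difference of the Namalwa empty array in these values was not tested.

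CD72 was at 0.48 in Raji, 0.23 in Namalwa and 0.30 in Ramos, with a mean of 0.34 (SE 0.10, adjusted p = 0.216). CD27 was at -0.01 in Raji, 0.45 in Namalwa and 0.40 in Ramos, with a mean of 0.28 (SE 0.12, adjusted p = 0.357). CD81 was at -0.20 in Raji, -0.16 in Namalwa and -0.23 in Ramos, with a mean of -0.19 (95% interval -0.42 to 0.03, adjusted p = 0.456). CD99 was at -0.17 in Raji, -0.24 in Namalwa and -0.12 in Ramos, with a mean of -0.18 (95% interval -0.40 to 0.05, adjusted p = 0.496), and its Ramos value compares arrays below the level minimum. The second CD99 probe set did not share the direction in Namalwa, with -0.18 in Raji and 0.05 in Namalwa, and both its Ramos arrays were below the level minimum.

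MS4A1, MME and CD24 had means near 0. MS4A1 was at 0.10 in Raji, 0.66 in Namalwa and -0.71 in Ramos, with a mean of 0.02 (95% interval -0.45 to 0.48, adjusted p = 0.985). MME was at 0.15 in Raji, -0.10 in Namalwa and -0.26 in Ramos, with a mean of -0.07 (95% interval -0.32 to 0.19, adjusted p = 0.853). CD24 was at -0.05 in Raji, where both arrays were below the level minimum, 0.07 in Namalwa and 0.17 in Ramos, with a mean of 0.06 (95% interval -0.17 to 0.29, adjusted p = 0.857). On the list of 35 tested further B-cell surface antigens, 0 passed by limma, with a median of 0.05, and at an unadjusted p under 0.05 there were 4 on the higher and 1 on the lower side. Of the 12 tetraspanins 0 passed, with 2 on the higher side unadjusted, and of the 14 partners and ligands 0 passed, with 1 on each side.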

How the data were processed

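Total RNA of 6 samples was hybridised to 1-colour Affymetrix arrays, per the labels. The authors' deposited values are log2 intensities from RMA (background correction, quantile normalisation and 1 summary value per probe set), per the labels' design text (RMA in BRB Array Tools) and the submitters' processing notes (GCOS, RMA). Versions are not given in the sources used here. Array medians were 4.36 to 4.44. RMA gives all arrays 1 distribution, so a shift of all RNAs one way would not be seen.

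Of 54675 probe sets, 62 were controls, 41091 had 1 gene symbol, 1801 several and 11721 none. Symbols were updated through Entrez IDs for 41037 with a RefSeq table (GRCh38.p14, which also gave the sequences). Genes were read from their brightest probe set, and 12012 genes with a mean of at least 4.42, the median of probe set means, were tested with limma (3.58.1, R 4.3.3) on an additive model of line and group. Lines were compared with the group as a term and groups with the line as a block. P-values were adjusted by Benjamini-Hochberg over all genes, with a threshold of 0.05. The pairing comes from the line in the labels. Deviations from the group means correlated within lines at 0.950 in Raji, 0.861 in Namalwa and 0.917 in Ramos. The fits were tested on simulated data. Alternatives were the block or term left out, array centring, level minimums, the median over probe sets, an intensity trend with a robust prior, other probe sets and leaving out arrays or lines. The members, lists and tests were chosen with earlier results of these data known. Named are all members and the 3 genes nearest to each with a range of at least 2 log2. Up to 4 called genes with the largest differences were taken per list and comparison. Only some of these are named, and none from the germinal centre and plasma cell lists. Other list genes named were chosen after their values were seen.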

Additional observations from a re-analysis of the deposited data

Results flagged for a closer look

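MS4A1 moved in opposite directions between miR26a and empty in a pair of lines, each by at least 0.5 log2. It was at 0.66 in Namalwa (10.21 on the miR26a array, 9.55 on the empty array) and at -0.71 in Ramos (7.24 on the miR26a array, 7.96 on the empty array). The other 3 MS4A1 probe sets were at 1.01, 1.01 and 0.27 in Namalwa and at -0.44, -0.40 and -0.62 in Ramos, where the last compares arrays below the level minimum. The Namalwa empty array is the one with the ACTB difference of 3.58 log2, and its part in the Namalwa value was not tested. The difference between the lines was not tested either, since each line gave 1 pair of arrays. Among the 10 genes MS4A1 alone met this criterion.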

How the results depend on the processing

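The number of arrays limits every result, and the level minimum stands in for detection calls that were not used. Differences between lines kept their direction under all alternatives run. Over the alternatives and other probe sets, calls of members were lost in 4 cases for Raji minus Namalwa, 4 for Raji minus Ramos and 12 for Namalwa minus Ramos, and gained in 1, 4 and 4. Leaving out 1 array left 7 to 9, 8 to 9 and 5 to 7 members called in these comparisons. Over all genes it left 870 to 983 calls for Namalwa minus Ramos, against 1761: 983 without the Namalwa miR26a array, 936 without its empty array, 957 without the Ramos miR26a array and 870 without its empty array. Without the Namalwa empty array, 7 members were called against Raji and 7 against Ramos.

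For miR26a minus empty, 0 genes and 0 members were called with limma and also with no replicate block (0 and 0). With 0 genes called in the main fit, no call could be lost, so this cannot show how much the pairing matters. Raising the level minimum to the 75th percentile called 50 genes and 1 member, and a robust prior that follows intensity called 102 and 1. Leaving out 1 line gave 0 to 203 genes and 0 to 1 members: 203 without Raji, 23 without Ramos and 0 without Namalwa. The member called was CD52 each time. Means near 0 changed sign: MS4A1 ran from -0.31 to 0.38 and MME from -0.18 to 0.0271 over the lines left out, MS4A1 was at -0.16 by its dimmest probe set and CD24 at -0.0256 by its dimmest.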
